A study of Mus musculus with 10 samples.

Results

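Fc receptors let microglia, the resident macrophages of the brain, bind the constant part of antibodies. The genes examined were Fcer1g, which encodes the common gamma chain, and the IgG receptor genes Fcgr1, Fcgr3, Fcgr4 and Fcgr2b. These 5 genes were taken by name from a table of 24453 gene symbols, and each had 1 row. RNA was sequenced from cells purified from brains of C57bl6 mice with magnetic beads, in 10 libraries that fell into 4 groups. The aged group held 3 libraries from untreated mice 15 months old, and the young group 3 libraries from untreated mice 10 weeks old. The deltaMG group held 2 libraries with the label Rab7 deltaMG and the control group 2 with the label Rab7 Control, all from untreated mice 3 months old. The product of Rab7 is a GTPase that guides the maturation of endosomes, and the series describes the deltaMG mice as null mutants. The labels do not name the promoter or Cre line behind the mutation, nor the alleles that the control mice carried. They also do not say whether each library came from its own animal or from pooled animals. Sex transcripts, given further on, show that each deltaMG and control library held male and female material. The aged libraries held male transcripts and the young ones female transcripts, so age and sex cannot be told apart. Below, 'with age' means aged against young libraries, and so also male against female. The p-values rest on the spread between libraries, which may be technical.

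In the mouse, the receptors encoded by Fcgr1, Fcgr3 and Fcgr4 are activating: each binds IgG outside the cell and relies on the gamma chain for assembly and for signalling. The gamma chain carries an immunoreceptor tyrosine-based activation motif (ITAM), which Src family kinases phosphorylate and to which the kinase Syk then binds, leading to engulfment and an oxidative burst. The receptor encoded by Fcgr2b has its own inhibitory motif and recruits the lipid phosphatase SHIP1, so the balance between Fcgr2b and the activating receptors sets the threshold of the response to immune complexes.

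Fcgr2b and Fcgr3 are close relatives, and part of their transcripts can hardly be told apart by short reads. On GRCm38, Fcgr2b (chr1:170958617-170976547, minus strand), Fcgr4 (chr1:171018920-171029761, plus strand), Fcgr3 (chr1:171051174-171064935, minus strand) and Fcer1g (chr1:171229572-171234365, minus strand) lie within 275.749 kb of each other, and Fcgr1 lies at chr3:96282909-96293969 on the minus strand. Of the 1345 runs of 50 bases in the Fcgr3 transcripts, 166 (12.3%) also occurred in Fcgr2b, where they were 4.48% of 3708 runs. At a run length of 100 bases, 44 runs were shared, 3.27% of those of Fcgr3 and 1.14% of those of Fcgr2b. Fcgr2b also shared runs of 50 bases with transcripts of many other genes, and 10.7% of its runs were not its own. Fcer1g, Fcgr1 and Fcgr4 shared no run of 50 bases with another gene. The pair of stretches printed here holds the longest match, 129 bases without a difference. It spans 240 coding bases of each gene, 162 in exon 3 and 78 in exon 4 (Fcgr2b chr1:170967980-170968141 and chr1:170966623-170966700; Fcgr3 chr1:171057691-171057852 and chr1:171054116-171054193). Capitals mark the 6 bases at which the genes differ.
Fcgr2b: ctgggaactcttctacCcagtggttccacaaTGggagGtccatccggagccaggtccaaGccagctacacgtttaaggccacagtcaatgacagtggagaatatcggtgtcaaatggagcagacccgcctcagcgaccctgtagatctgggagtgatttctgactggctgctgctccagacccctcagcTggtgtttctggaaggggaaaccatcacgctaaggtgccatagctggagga
Fcgr3: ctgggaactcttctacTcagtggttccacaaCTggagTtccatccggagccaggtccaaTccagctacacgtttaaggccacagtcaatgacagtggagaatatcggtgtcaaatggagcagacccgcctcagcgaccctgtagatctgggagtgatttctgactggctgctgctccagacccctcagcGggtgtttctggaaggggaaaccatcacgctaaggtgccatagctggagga

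The promoters are shown because Fcgr1 and Fcgr3, whose start regions share the longest run among the members, did not have the most alike levels, as given further on. How often a run of that length is shared by other promoters was not tested. Each sequence runs from 250 bases before to 50 bases after the start site and comes from RefSeq on GRCm38.p6 (Fcer1g chr1:171234300-171234599, Fcgr1 chr3:96293920-96294219, Fcgr2b chr1:170976022-170976321, Fcgr3 chr1:171059354-171059653, all on the minus strand). Capitals mark TTCCTC, the reverse complement of GAGGAA, a sequence that PU.1, a transcription factor of the macrophage lineage, can bind. On both strands together GAGGAA occurred in 28.3% of 32851 mouse promoters of this length. It lay at -55 to -50 in Fcgr1, at -6 to -1 from the start site of the Fcgr3 sequence printed here (-15 to -10 from a second RefSeq start), and at -22 to -17 in Fcgr4. These exact letters were not in the windows of Fcer1g and Fcgr2b. Other sequences that PU.1 can bind were not searched for, so this does not show that these windows lack a PU.1 site. The Fcgr3 window lies inside the gene span given above, which on this strand begins at chr1:171064935.
Fcer1g: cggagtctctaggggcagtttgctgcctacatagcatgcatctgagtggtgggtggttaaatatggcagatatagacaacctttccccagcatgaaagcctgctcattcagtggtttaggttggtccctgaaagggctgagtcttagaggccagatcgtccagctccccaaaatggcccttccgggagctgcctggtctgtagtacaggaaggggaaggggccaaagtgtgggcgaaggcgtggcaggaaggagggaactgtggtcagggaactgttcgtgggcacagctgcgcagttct
Fcgr1: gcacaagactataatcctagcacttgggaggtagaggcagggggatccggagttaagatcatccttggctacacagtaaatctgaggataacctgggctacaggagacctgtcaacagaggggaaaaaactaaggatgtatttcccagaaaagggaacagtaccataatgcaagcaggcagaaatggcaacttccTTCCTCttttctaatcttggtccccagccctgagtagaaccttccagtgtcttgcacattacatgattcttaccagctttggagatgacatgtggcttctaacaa
Fcgr2b: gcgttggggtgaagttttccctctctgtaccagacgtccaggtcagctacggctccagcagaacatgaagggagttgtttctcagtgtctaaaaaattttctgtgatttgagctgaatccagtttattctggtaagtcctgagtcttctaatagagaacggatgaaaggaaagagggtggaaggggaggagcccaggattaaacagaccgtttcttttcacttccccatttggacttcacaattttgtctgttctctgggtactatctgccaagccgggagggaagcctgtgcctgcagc
Fcgr3: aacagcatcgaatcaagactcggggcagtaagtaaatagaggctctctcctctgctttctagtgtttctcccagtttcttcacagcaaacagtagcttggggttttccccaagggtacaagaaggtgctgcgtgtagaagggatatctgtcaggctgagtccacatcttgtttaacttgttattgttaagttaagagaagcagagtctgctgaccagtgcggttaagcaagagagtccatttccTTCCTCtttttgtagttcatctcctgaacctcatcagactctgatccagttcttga

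Values were in RPM, read numbers scaled to a common total, and the reads behind the scaling were 6098275 to 9907458 per library, of which 18.7% to 23.5% lay in listed genes. All 50 values of the 5 members were whole reads within 0.05 of a read. All 12 microglia markers were among the tested genes, and their summed level was 4018 to 4495 RPM in aged, 5955 to 6603 RPM in young, 5083 to 6565 RPM in deltaMG and 5833 to 6264 RPM in control libraries. With age 6 of the 12 were called lower in aged libraries (P2ry12, Tmem119, Cx3cr1, Sall1, Siglech and Gpr34) and none higher. Of all genes tested 2.99% were called lower and 3.16% higher with age. Between the Rab7 labels 2.58% of all genes tested were called lower and 1.2% higher in deltaMG libraries. Of the 12 markers none was called lower and 1 was called higher. This was Cx3cr1, the fractalkine receptor, named after its values were seen, which averaged 1125 ± 226 RPM in deltaMG and 417 ± 27.4 RPM in control libraries (SD, n = 2 each; 2.67-fold, limma adjusted p = 0.000158), a call that held in 20 of 20 alternatives. The RNA level of Rab7 was not lower in deltaMG libraries: it averaged 75.8 ± 5.13 RPM in the libraries labelled deltaMG and 65.9 ± 2.37 RPM in those labelled control (SD, n = 2 each; log2 fold change 0.20, limma adjusted p = 0.668). With 1 value for the gene, this level cannot show whether part of the transcript was missing, so the mutation itself was not tested. The names of these groups therefore follow the labels only. The aged libraries held male transcripts (Xist at most 0.940 RPM, Y-linked genes 35.7 to 48.7 RPM) and the young libraries female ones (Xist 1715 to 1771 RPM, Y-linked genes at most 0.288 RPM), so age and sex cannot be told apart. Each deltaMG and control library held both. Xist was at 1171 and 1562 RPM and Y-linked genes at 20.3 and 9.11 RPM in deltaMG libraries. In control libraries Xist was at 1410 and 924 RPM and Y-linked genes at 19.3 and 25.8 RPM. Each of these libraries therefore mixed male and female material, in shares that differed between libraries. The part of this mix in the comparison of Rab7 labels was not tested.

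The gamma chain was the most abundant member per kb of exon, with the exons of all transcripts of a gene in the basic annotation joined. Divided by the exon length of the gene, Fcer1g averaged 160.5 RPM per kb in aged, 115 in young, 152 in deltaMG and 184 in control libraries. Fcgr3 was next in every group, with 63.3 RPM per kb in aged, 66.8 in young, 77.6 in deltaMG and 95.02 in control libraries. Fcgr1 averaged 15.6 RPM per kb in aged, 18.0 in young, 19.1 in deltaMG and 19.2 in control libraries. The inhibitory receptor Fcgr2b stood lower, at 5.87 RPM per kb in aged, 5.21 in young, 6.78 in deltaMG and 8.35 in control libraries. Its joined exons, from 4 transcripts, came to 3.81 kb. Division by a shorter single transcript would give higher values for Fcgr2b, and the transcripts in use were not tested. Fcgr4 was lowest, at 1.33 to 2.91 RPM per kb over the 4 groups.

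**Figure D1:**
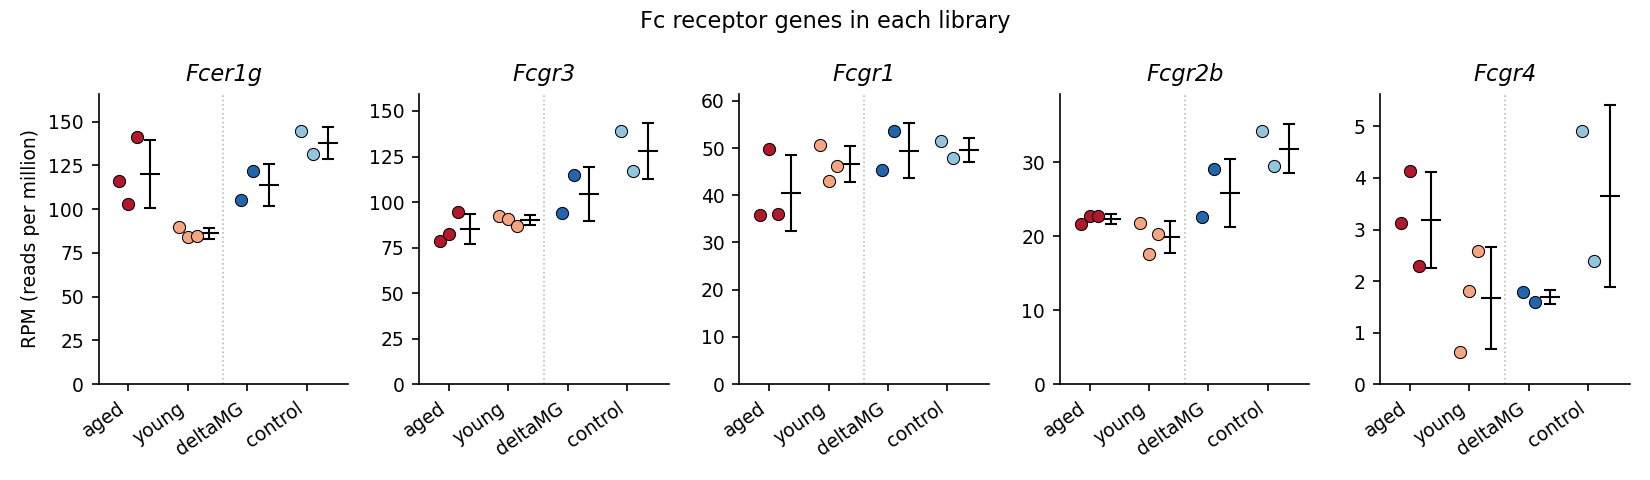
RPM (vertical axis, linear from 0, a scale for each gene) of the 5 Fc receptor genes in each of the 10 libraries by group. Points are libraries and bars are means ± SD; the aged Fcer1g points, 103 to 141 RPM, lie above the young ones, 84.3 to 90.0 RPM, while Fcgr3, Fcgr1, Fcgr2b and Fcgr4 overlap between aged and young.

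Fcer1g was higher in aged than in young libraries, and among the members tested it alone was called, meaning an adjusted p under 0.05. Its level was 116, 103 and 141 RPM in the aged libraries 1 to 3, against 90.0, 84.3 and 84.6 RPM in the young ones. Every aged library lay above every young one, and the young libraries stood close together. The means were 120.0 ± 19.5 RPM in aged and 86.3 ± 3.19 RPM in young libraries (SD over 3 libraries each), and the log2 fold change was 0.46 (SE 0.13, 95% interval 0.18 to 0.74), or 1.38-fold. The limma adjusted p, with Benjamini-Hochberg adjustment over 4151 genes, was 0.0496. The call was lost in 16 of 20 alternative settings, with adjusted p between 0.00791 and 0.236 over them, and without any single library other than aged 2 (adjusted p 0.0543 to 0.165), while the direction held in all 20. The aged libraries held male and the young ones female transcripts, so this difference may follow age or sex. In bulk RNA, more cells of a type and more RNA per cell cannot be told apart.

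As given above, 6 of 12 microglia markers were called lower in the same comparison. Of the 4 Fc receptor genes tested, 1 was called, against 6.14% of all genes tested. In all, 131 genes (3.16%) were higher and 124 (2.99%) lower in aged libraries. This split was 230 higher and 104 lower after rescaling the libraries by median of ratios. Aged libraries lay above young ones without overlap for Fcer1g alone of the 4 and for 8.41% of genes tested, and below them for none of the 4 and for 15.5% (23.9% either way). Across all genes tested the median log2 fold change was -0.05.

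Markers of blood cells that also carry Fc receptors were high in some aged libraries. Of 13 tested neutrophil markers 1 was called higher with age (Cxcr2), against 3.16% of all genes tested. Of 7 tested monocyte markers 4 were called higher (Ccr2, Fn1, Itga4 and Nr4a1). All 13 and all 7 had log2 fold changes above 0, with medians of 1.08 and 1.12. The 15 neutrophil markers summed to 1719, 999.9 and 4437 RPM in aged libraries 1 to 3, and to 1026, 1468 and 571 RPM in young ones. The 10 monocyte markers summed to 195 to 806 RPM in aged and 102 to 244 RPM in young libraries. With the neutrophil score as a covariate the log2 fold change of Fcer1g was 0.33 (limma adjusted p = 0.236). Beyond this fit, the part of blood cells in the Fcer1g level was not tested.

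**Figure D2:**
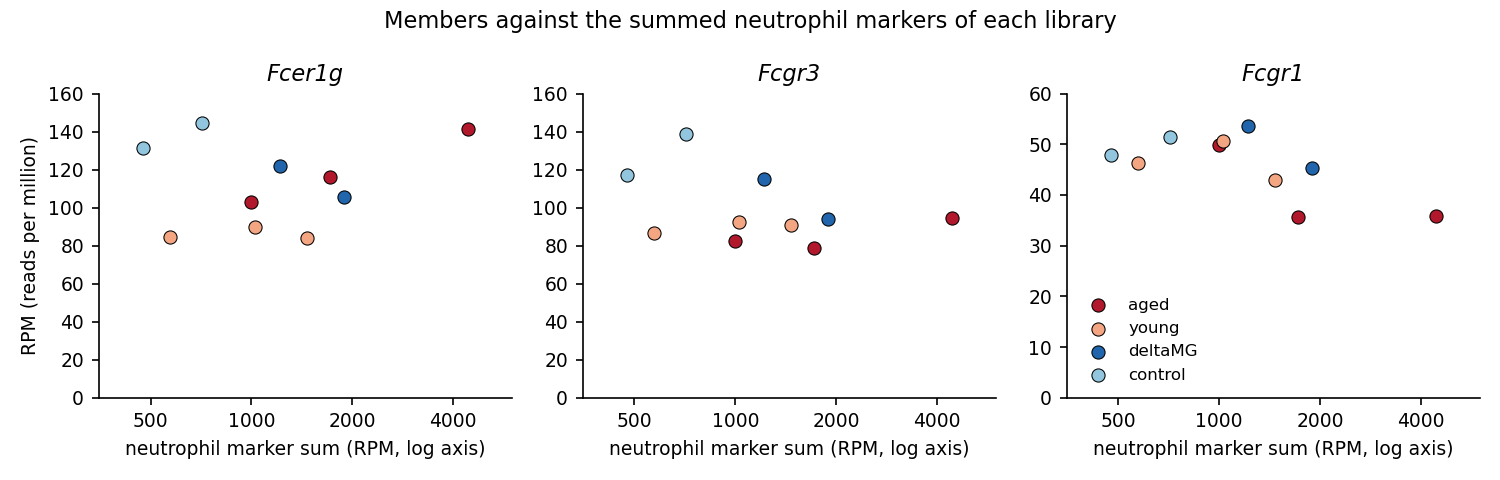
RPM of Fcer1g, Fcgr3 and Fcgr1 (vertical axes, linear from 0) against the summed RPM of the 15 neutrophil markers (horizontal axis, log scale) in each of the 10 libraries, coloured by group. The marker sum spans 999.9 to 4437 RPM in aged and 571 to 1468 RPM in young libraries, and is 1889 and 1218 RPM in deltaMG and 714 and 475 RPM in control libraries.

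In the comparison of Rab7 labels Fcer1g was at 105 and 122 RPM in deltaMG libraries, against 144 and 132 RPM in control libraries. Both deltaMG values were lower, with means of 114 ± 11.7 RPM in deltaMG and 138.0 ± 9.10 RPM in control libraries (SD, n = 2 each). The log2 fold change of -0.28 (SE 0.16, 95% interval -0.62 to 0.06) did not pass (limma adjusted p = 0.379). It was -0.17 without deltaMG library 1 and -0.47 with the neutrophil covariate. The effect in this comparison minus that of age was -0.74 (SE 0.20, limma adjusted p = 0.0533), which did not pass, where 4.79% of genes were called for this difference. In 15 of 19 alternatives it also did not pass (adjusted p up to 0.249), and it passed in the other 4, after median-of-ratios rescaling (-0.77, adjusted p = 0.0104), after quantile normalization (-0.66, 0.0247), with the neutrophil covariate (-0.80, 0.00664) and without aged library 2 (-0.84, 0.0209). By mean level Fcer1g ran from young, which stood apart, through deltaMG and aged to control, and the last 3 overlapped with their neighbours.

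Fcgr3, the low-affinity activating receptor, had 78.8, 82.5 and 94.6 RPM in aged libraries and 92.3, 90.8 and 86.8 RPM in young ones. The ranges overlapped, and the log2 fold change was -0.08 (95% interval -0.35 to 0.19, limma adjusted p = 0.778). In deltaMG libraries it had 94.1 and 115 RPM, against 139 and 117 RPM in control libraries. The second library of each group nearly met, yet both deltaMG values were lower. The means were 104 ± 14.7 RPM in deltaMG and 128 ± 15.3 RPM in control libraries (SD, n = 2 each), with a log2 difference of -0.29 (SE 0.15, 95% interval -0.62 to 0.04) that did not pass (limma adjusted p = 0.331). It ran from -0.15 without deltaMG library 1 and -0.17 without control library 1 to -0.43 without deltaMG library 2. By mean level Fcgr3 ran from aged and young, which overlapped, through deltaMG to control. The deltaMG libraries lay above all young ones and below both control ones, and aged library 3, at 94.6 RPM, lay just above deltaMG library 1, at 94.1 RPM.

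Fcgr1, which encodes the high-affinity IgG receptor, was the member whose level moved least between the Rab7 labels. It had 45.4 and 53.5 RPM in deltaMG libraries and 51.4 and 47.8 RPM in control libraries, so the control values lay inside the deltaMG range. The log2 fold change was -0.01 (95% interval -0.39 to 0.38, limma adjusted p = 0.989), and its sign turned under 5 of 20 alternatives, both rescalings of the libraries among them (0.01 and 0.02). With age the values were 35.7, 49.9 and 35.9 RPM in aged libraries and 50.6, 43.0 and 46.2 RPM in young ones. Aged library 2 stood apart from the other aged libraries and within the young range. The log2 fold change was -0.21 (95% interval -0.53 to 0.10, limma adjusted p = 0.452). Aged libraries 1 and 3, the lowest of all 10 in Fcgr1, had neutrophil sums of 1719 and 4437 RPM. DeltaMG library 1 had a higher neutrophil sum than aged library 1, 1889 RPM, with Fcgr1 at 45.4 RPM. With the neutrophil covariate the log2 fold change of Fcgr1 with age was -0.06 (limma adjusted p = 0.892). The part of those cells in the level was not tested beyond this fit.

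Fcgr4, which encodes an activating receptor of intermediate affinity, was near the limit of detection and was not tested across genes, since no library reached 10 RPM. It had 3.13, 4.14 and 2.29 RPM in aged libraries (20, 41 and 18 reads) and 0.630, 1.80 and 2.59 RPM in young ones (4, 11 and 18 reads). The lowest aged value was below the highest young one, and an exact two-sided permutation test gave p = 0.2, where 0.1 is the smallest possible. Counting error alone spanned 0.172 to 1.61 RPM in young library 1 and 2.97 to 5.61 RPM in aged library 2 (exact Poisson 95% intervals, which cover counting error only). In deltaMG libraries it had 1.79 and 1.59 RPM, against 4.90 and 2.40 RPM in control libraries. Both deltaMG values were lower, and the exact two-sided permutation p of 0.333 is the smallest that 2 libraries against 2 allow.

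Fcgr2b, the inhibitory receptor, had 21.6, 22.7 and 22.7 RPM in aged libraries and 21.7, 17.5 and 20.3 RPM in young ones. The aged libraries were almost level with each other and 1 of them fell just inside the young range. The log2 fold change was 0.17 (95% interval -0.15 to 0.48, limma adjusted p = 0.578), and with Fcgr2b and Fcgr3 summed as 1 gene it was -0.03. In deltaMG libraries it had 22.6 and 29.1 RPM, against 34.2 and 29.5 RPM in control libraries. As for Fcgr3, the second libraries nearly met and both deltaMG values were lower. The means were 25.8 ± 4.59 RPM in deltaMG and 31.8 ± 3.33 RPM in control libraries (SD, n = 2 each), with a log2 difference of -0.30 (95% interval -0.68 to 0.09, limma adjusted p = 0.413). It ran from -0.12 without deltaMG library 1 to -0.47 without deltaMG library 2, and was -0.19 without control library 1. The annotated antisense gene Gm38204 covers 493 bases of Fcgr2b exons on the other strand, and the counting is not stated to use strand, so its reads could not be told apart there.

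None of the 4 members tested passed between the Rab7 labels with limma at an adjusted p under 0.05, and none at an unadjusted p under 0.05, where 3.78% of genes tested were called (1.2% higher and 2.58% lower in deltaMG libraries) and 780 genes had an unadjusted p under 0.05. The deltaMG libraries lay below the control ones without overlap for Fcer1g, Fcgr3 and Fcgr2b, a pattern that 26.6% of genes tested showed (51.8% did not overlap either way). The effect between the labels minus that of age was 0.20 for Fcgr1, -0.21 for Fcgr3 and -0.47 for Fcgr2b on the log2 scale (limma adjusted p = 0.718, 0.644 and 0.318). The median log2 fold change was -0.29 over the 4 members and -0.02 over all genes tested. Neutrophil markers summed to 1889 and 1218 RPM in deltaMG libraries and to 714 and 475 RPM in control libraries. Monocyte markers summed to 211 to 273 RPM in deltaMG and 72.1 to 118 RPM in control libraries. All 13 tested neutrophil and all 7 tested monocyte markers had log2 fold changes above 0, with medians of 1.62 and 1.41. Of these, 1 neutrophil marker (Cxcr2) and 1 monocyte marker (Nr4a1) were called higher in deltaMG libraries, against 1.2% of all genes tested. No member was called in the fit with the neutrophil covariate, and the part of monocytes in these values was not tested.

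**Figure D3:**
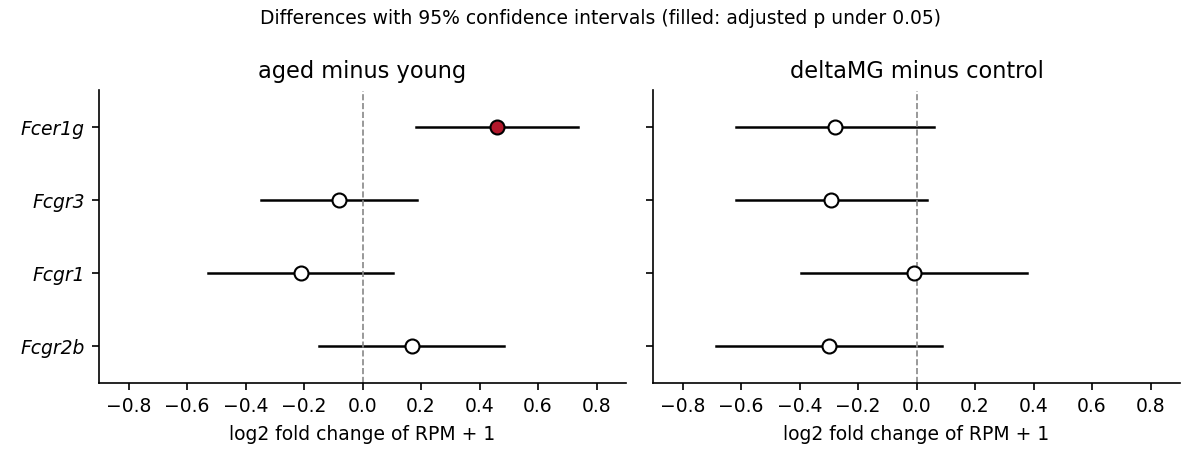
Log2 fold change of RPM + 1 (horizontal axis) of the 4 tested members, aged minus young and deltaMG minus control, as points with 95% intervals from limma. The aged minus young interval of Fcer1g, 0.18 to 0.74, lies above 0 and the other intervals cross it.

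The inhibitory receptor was set against the activating ones within each library. Fcgr2b stood at 18.4, 16.6 and 17.1 RPM per 100 RPM of Fcgr1, Fcgr3 and Fcgr4 together in aged libraries, and at 15.1, 12.9 and 15.0 in young ones. The aged values were all above the young ones, although neither Fcgr2b nor Fcgr3 was called alone. In deltaMG libraries the ratio was 16.0 and 17.1, against 17.5 and 17.6 in control libraries. Fcer1g over the same 3 receptors was 0.985, 0.754 and 1.06 in aged libraries and 0.627, 0.622 and 0.624 in young ones. It was 0.746 and 0.718 in deltaMG and 0.740 and 0.786 in control libraries, which overlap. The sum of the 5 members was 255, 262 and 297 RPM in aged, 255, 237 and 241 RPM in young, 269 and 321 RPM in deltaMG, and 374 and 328 RPM in control libraries. These ratios and sums were described and not tested.

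**Figure D4:**
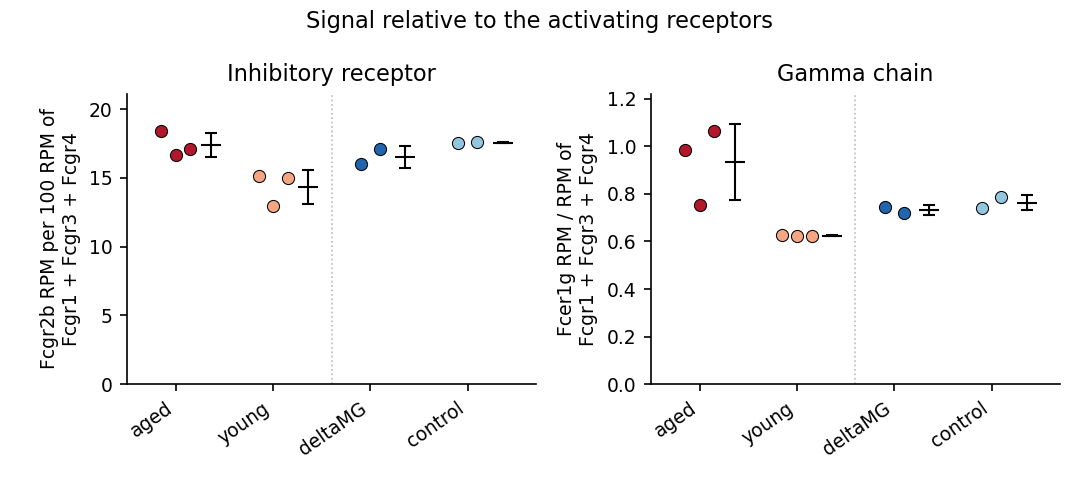
Fcgr2b RPM per 100 RPM of the activating receptors Fcgr1, Fcgr3 and Fcgr4 (left) and Fcer1g RPM over the same sum (right) in each library, with means ± SD and axes from 0. Aged libraries, 16.6 to 18.4 and 0.754 to 1.06, lie above young ones, 12.9 to 15.1 and 0.622 to 0.627, in both.

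Among the members, Fcgr2b and Fcgr3 varied most alike over the 10 libraries, with Pearson r of 0.87 for log2(RPM + 1) and 0.69 for the deviations from the group means. Part of their sequence is shared, as shown above, and their promoters share no run over 8 bases on 1 strand. Fcgr1 and Fcgr3 share the run ttccttcctctttt, 14 bases long and starting at -59 in Fcgr1 and at -10 in Fcgr3, and their levels correlated at 0.53. Fcer1g correlated with Fcgr2b at 0.79, with Fcgr3 at 0.62 and with Fcgr1 at -0.11. The libraries share groups, depth and cell makeup, so these values are descriptions with no p.

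Likeness of pattern was ranked by Pearson r of log2(RPM + 1) over the 10 libraries, among 687 genes whose mean reached 50 RPM. Those closest to Fcer1g were H2-D1, an MHC class I heavy chain (r = 0.96), Fth1, the ferritin heavy chain (0.95), and Wipf1, a partner of the WASP protein in actin assembly (0.94), where the median gene was at 0.19. Closest to Fcgr3 were Rlim, a ubiquitin ligase (0.95), Creg1 (0.94) and Tns3 (0.94), with a median of 0.43. Closest to Fcgr1 were Specc1, Pik3r1, a regulatory subunit of phosphoinositide 3-kinase, and Ccdc93, each at 0.94, with a median of 0.32. Closest to Fcgr2b were Hsp90b1, a chaperone of the endoplasmic reticulum (0.93), Ids, a lysosomal sulfatase (0.93), and Tns1 (0.92), with a median of 0.34. For Fcgr4 the highest values were lower, 0.73 for Apoe, 0.72 for Eef1a1 and 0.69 for Ccl3, with a median of -0.10. The 3 genes differed from member to member, and none of them was a member.

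Other Fc-binding genes were mostly at low levels. Of 13 related Fc receptor genes in the table, 2 were tested and neither passed in either comparison. Fcrls, an Fc receptor-like gene used as a microglia marker in mice, had 133, 165 and 140.3 RPM in aged libraries and 278, 213 and 232 RPM in young ones. All aged values were lower, at a log2 fold change of -0.71 that did not pass (limma adjusted p = 0.0530), while 8 of 20 alternatives passed. In deltaMG libraries it had 99.8 and 153 RPM, against 290 and 157 RPM in control libraries, at -0.78 (limma adjusted p = 0.102). The value ran from -0.34 without control library 1 (adjusted p = 0.709) and -0.48 without deltaMG library 1 to -1.22 without control library 2 (adjusted p = 0.0277).

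Syk and Lyn, kinases that dock on the gamma chain or act on it directly, did not pass in either comparison. Of 31 activating signalling genes 20 were tested and 0 were called in each comparison with limma. Syk, the kinase that docks on the ITAM, averaged 46.7 ± 10.7 RPM in aged and 39.9 ± 3.81 RPM in young libraries (SD, n = 3 each; limma adjusted p = 0.581). Lyn, a Src family kinase, had 153, 179.6 and 163 RPM in aged libraries and 219.5, 205 and 206 RPM in young ones, lower without overlap at a log2 fold change of -0.35 (limma adjusted p = 0.0821). Without aged library 2 this was -0.41 (adjusted p = 0.0492). Fgr, Src, Fyn, Yes1 and Lck of the same family were under the filter on low values and were not tested. The median log2 fold change of the tested members of this list was -0.11 with age and 0.02 between the Rab7 labels.

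Of 15 inhibitory signalling genes 10 were tested, and with age 1 rose and 2 fell, where 3.16% of all genes tested were called higher and 2.99% lower. Inpp5d, which encodes SHIP1, the phosphatase recruited by Fcgr2b, averaged 58.7 ± 7.38 RPM in aged and 80.9 ± 3.92 RPM in young libraries (SD, n = 3 each), with a log2 difference of -0.46 (limma adjusted p = 0.0424). Ubash3b, a phosphatase that acts on Syk, fell by 0.52 on the log2 scale (limma adjusted p = 0.0367). Ptprc, the phosphatase CD45, is present on all white blood cells and can also switch on Src family kinases. It rose by 0.52 (limma adjusted p = 0.0496). Each of these 3 calls was lost in most alternatives, 15 of 20 for Inpp5d, 11 of 20 for Ubash3b and 16 of 20 for Ptprc, and no sign changed. None of the 10 was called between the Rab7 labels.

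Of 24 genes for actin and engulfment 20 were tested and 1 was called with age, a share near the 6.14% of all genes tested. This was Elmo1, a partner of Dock proteins in engulfment. It averaged 64.4 ± 2.84 RPM in aged and 91.8 ± 6.41 RPM in young libraries (SD, n = 3 each), with a log2 difference of -0.50 (limma adjusted p = 0.0200), and the call was lost in 7 of 20 alternatives. Of 5 NADPH oxidase genes 4 were tested and none was called in either comparison. Cybb, the catalytic subunit of the phagocyte oxidase, had 107, 62.8 and 249 RPM in aged libraries and 58.3, 62.1 and 27.2 RPM in young ones. The highest Cybb value was in aged library 3, which also had the highest neutrophil sum. Its log2 fold change of 1.34 did not pass (limma adjusted p = 0.0561), nor did it in 16 of 20 alternatives. It was 0.81 without aged library 3 (adjusted p = 0.138), 1.80 without aged library 2 (adjusted p = 0.00519) and 0.41 with the neutrophil covariate (adjusted p = 0.151).

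Other adaptors and receptors of ITAM pathways were called in both comparisons. Of 24 genes 15 were tested, and with age 4 rose and 2 fell, against the same shares of 3.16% and 2.99% over all genes tested. Clec7a, the receptor dectin-1 for fungal glucans, had 23.3, 10.2 and 22.9 RPM in aged libraries and 6.62, 6.56 and 2.73 RPM in young ones, 3.11-fold higher (limma adjusted p = 0.00704). Pirb, an inhibitory receptor, had 17.7, 16.9 and 35.4 RPM in aged libraries and 5.99, 7.05 and 5.61 RPM in young ones, 3.2-fold higher (limma adjusted p = 0.00107), and remained called in all 20 alternatives. Clec4e, the receptor Mincle that signals through the gamma chain, was 2.68-fold higher (limma adjusted p = 0.0389) with 9.39 to 32.1 RPM in aged and 3.60 to 9.51 RPM in young libraries, which overlap.

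The Clec4e call was lost in 12 of 20 alternatives, and with the neutrophil covariate its log2 fold change was 0.61 in place of 1.42. Lilrb4a, another inhibitory receptor, was 2.58-fold higher in aged libraries (limma adjusted p = 0.0179), and the call was lost in 5 of 20. With the neutrophil covariate its log2 fold change was 0.74 in place of 1.37 (adjusted p = 0.0323). Sirpa, the receptor for CD47, fell by 0.49 and Siglech, a lectin of microglia, fell by 0.57 on the log2 scale (limma adjusted p = 0.0402 and 0.0104), and the calls were lost in 11 and 2 of 20 alternatives. The neutrophil and monocyte sums given above were higher in aged libraries 1 and 3 than in any young one.

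Between the Rab7 labels 2 of these 15 genes fell and none rose, where 2.58% of all genes tested were called lower and 1.2% higher. Tyrobp, which encodes DAP12, the ITAM adaptor that like the gamma chain serves many myeloid receptors, had 54.8 and 62.1 RPM in deltaMG libraries, against 149 and 92.4 RPM in control libraries. Both deltaMG values were lower, at a log2 fold change of -0.998 (limma adjusted p = 0.0107). Without control library 1 it was -0.65 (adjusted p = 0.240), and without deltaMG library 1 it was -0.91 (adjusted p = 0.132).

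Trem2, a lipid receptor that signals through DAP12, averaged 22.6 ± 0.280 RPM in deltaMG and 36.9 ± 2.39 RPM in control libraries (SD, n = 2 each), with a log2 difference of -0.68 (limma adjusted p = 0.0420). That call was lost in 12 of 20 alternatives, and without any 1 of the 4 libraries of these groups. The ratio of Fcer1g to Tyrobp, both in RPM, was 1.92 and 1.97 in deltaMG libraries and 0.966 and 1.42 in control libraries. It was 1.65, 1.81 and 1.93 in aged libraries and 1.66, 1.56 and 1.41 in young ones, where the ranges overlapped.

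**Figure D5:**
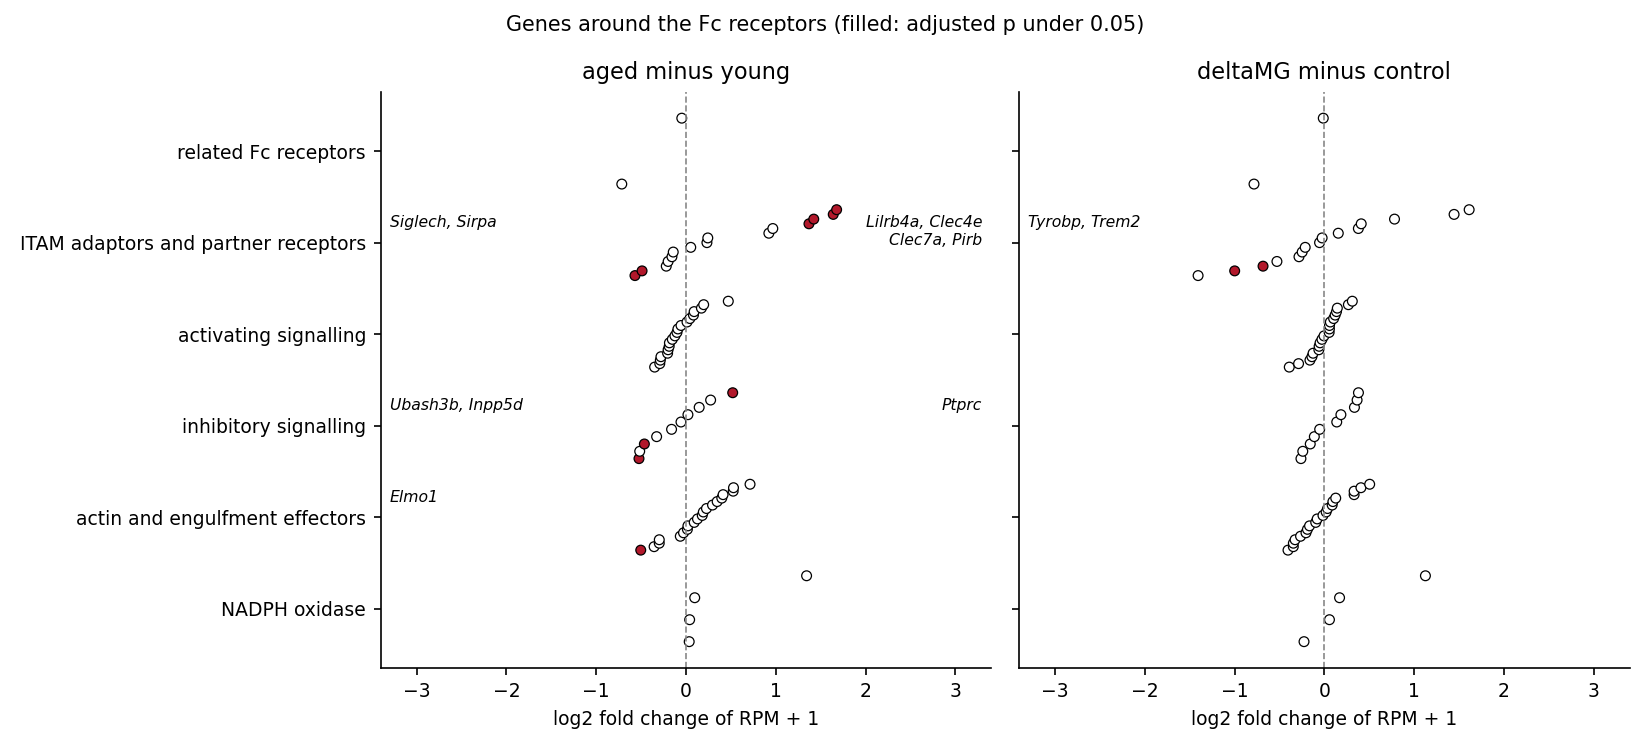
Log2 fold change of RPM + 1 (horizontal axis) of each tested gene in 6 lists around the Fc receptors, aged minus young (left) and deltaMG minus control (right). Filled points had a limma adjusted p under 0.05 and are named on the side of their sign. In aged minus young, Pirb is highest of them at 1.68 and 5 named genes lie below 0; in deltaMG minus control, Tyrobp at -0.998 and Trem2 at -0.68 are the filled points.

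Markers of other cells that carry Fc receptors were compared with these levels. The 7 B cell markers in the table summed to 6.73 to 9.87 RPM in aged, 3.44 to 4.32 RPM in young, 4.34 to 6.45 RPM in deltaMG and 18.6 to 22.6 RPM in control libraries. By group mean, most of that sum was Cd22 in aged, deltaMG and control libraries but not in young ones. Cd22 is a sialic acid-binding lectin and the 1 gene of the list that was tested. The other genes of the list did not reach the filter on low values. The differences in the sum therefore follow Cd22 and are not a measure of B cells. Cd22 averaged 5.82 RPM in aged and 1.58 RPM in young libraries (log2 fold change 1.37, limma adjusted p = 0.0147), and 3.77 RPM in deltaMG and 20.2 RPM in control libraries (-2.15, limma adjusted p = 0.00288). The T and NK cell markers summed to at most 7.24 RPM in any library, with Cd3g at 0 in all of them. The mast cell and basophil markers summed to at most 4.95 RPM, with Mcpt4, Tpsb2 and Tpsab1 at 0 in all libraries. Border macrophage markers summed to 32.1 to 84.6 RPM in aged, 26.9 to 30.0 RPM in young, 48.7 to 50.3 RPM in deltaMG and 39.2 to 47.9 RPM in control libraries, with every aged library above every young one. Of the 9 genes of that list 2 were tested, and 1 of them was called with age. Mrc1 averaged 14.9 ± 2.90 RPM in aged and 14.0 ± 1.71 RPM in young libraries (SD, n = 3 each) and was not called. Its log2 fold change was 0.08 (limma adjusted p = 0.865). F13a1, a transglutaminase subunit, was called 3.43-fold higher in aged libraries (34.1 ± 25.4 RPM, against 7.72 ± 2.08 RPM in young ones, SD, n = 3 each; limma adjusted p = 0.0123). F13a1 alone made up most of the difference between the mean border macrophage sums of aged and young libraries. The calls of Cd22 and F13a1 with age were lost in 4 of 17 and 4 of 20 alternatives. Among these were the fits without aged library 1 or young library 1 for Cd22, and without young library 3 for F13a1. Cd22, Mrc1 and F13a1 were named after their values were seen. The part of these cells in the levels of the 5 members was not tested.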

How the data were processed

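The labels give 10 libraries of total RNA from bead-purified microglia, amplified with a NuGEN kit and made into Ion Xpress libraries. FastQC and the genome builds GRCm38 and mm10 are named in the submitters' processing notes. Aligner, counter, normalisation and strand setting were not given in the sources used here. The table deposited by the authors was read as RPM from its values: above a constant of 0.0001 in every cell, low values were multiples of 1 step per library (0.101 to 0.164 RPM). In values worth at most 500 reads, 94.2% to 94.6% lay within 0.05 of a whole read, and with fractions among the others no count model was fitted.

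Genes reaching 10 RPM in 2 or more libraries were tested as log2(RPM + 1) with limma 3.58.1 in R 4.3.3, in 1 fit of 4 groups with a mean-dependent prior variance and Benjamini-Hochberg adjustment, called at 0.05. Fold changes on this scale understate those of low genes. Fcgr4 was tested with scipy 1.17.1, and figures were drawn with matplotlib 3.10.9. The fit was tested on simulated data. Exon lengths and the transcripts of the members came from the basic GENCODE annotation of GRCm38, and promoters from RefSeq on GRCm38.p6.

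The members, the lists of related genes and markers and the tests were chosen with earlier results of these data known. Genes named were the members, up to 6 called genes per list, other list members that a role needed, the 3 genes of most similar pattern per member, and Rab7. The labels do not say that replicate numbers pair the libraries, and the main fit used no pairs. Libraries of the same number had correlations of deviations of -0.39 to -0.14 between aged and young and 0.12 between deltaMG and control. With 2 libraries a group both such values must be equal, and libraries of different numbers were not compared, so these values do not decide on pairing. Alternatives covered the filter, pseudocount, scaling, libraries in the fit, replicate block, prior variance, a neutrophil covariate, Fcgr2b and Fcgr3 summed, and leaving out each library.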

Additional observations from a re-analysis of the deposited data

How the results depend on the processing

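Of 248 values from 15 results of the 5 members under alternatives, 222 kept their direction and side of the threshold and 26 did not. The cause of these changes was not tested. For Fcer1g in aged minus young the log2 fold change stayed at 0.46 and was not called with no filter, a minimum of 1 RPM, own groups only, the replicate block or a prior variance that does not depend on the mean (limma adjusted p 0.149, 0.0613, 0.0920, 0.151 and 0.111). It was 0.44 with a pseudocount of 5, 0.33 with the neutrophil covariate and 0.34 to 0.56 without each library in turn. Its difference of effects passed at -0.77 and -0.66 under the rescalings and -0.80 with the covariate, and was -0.84 to -0.62 without each library. Fcgr2b in aged minus young was -0.0316 when summed with Fcgr3. Fcgr1 in deltaMG minus control was 0.0103 and 0.0230 under the rescalings, 0.22 with the covariate and -0.12 to 0.11 without each library. Rab7 was at -0.20 in deltaMG minus control with the covariate. Genes called with age numbered 119 with no filter, 116 with own groups only, 66 with the replicate block, 133 with the covariate and 92 to 419 without each library, against 255. Between the Rab7 labels they numbered 86, 476 and 69 under the first 3 of these and 22 to 307 without each library, against 157. The replicate block, which takes replicate numbers as pairs although the labels do not state this, called no member. Where 1 of 2 libraries of a group was left out, the lone one was taken to vary as the other groups do. Depth limited Fcgr4, with 4 to 41 reads per library, and groups of 2 or 3 libraries limited all comparisons.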
